A study of Mus musculus with 8 samples.

Results

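The genes described are 10 that encode colony-stimulating factors, TSLP, alarmins and related cytokines through which tumor cells act on myeloid cells: Csf1, Il34, Csf1r, Csf2, Csf3, Tslp, Il33, Il1a, Il18 and Mif. They were matched by symbol to the Ensembl IDs of the count table, where all 10 were found among the 16341 genes counted, and all 10 were among the 11717 genes tested. The libraries came from 4T1, a metastatic mouse mammary carcinoma line, divided by the surface protein SCA1, which is encoded by Ly6a. The question was how 4T1-Sca1+ cells differ from 4T1-Sca1- cells in gene expression, and each group had 4 RNA-seq libraries, numbered 1 to 4. The source label places both groups in the parental line, whereas the extraction protocol speaks of tumor stained with a Sca1-PE antibody and passed over magnetic columns, and the sort label reads CD45-Sca1+ or CD45-Sca1-, taken here as a gate on cells without the leukocyte antigen CD45. No treatment, time point or genetic change is given for either group. The groups represent a single cell line, and since nothing in the labels says that replicates were separate sorts, p-values measure only the spread between these libraries, which may be technical.

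Colony-stimulating factors are secreted proteins that direct the survival, growth and differentiation of myeloid cells. CSF1 (M-CSF) and IL-34 bind the same receptor, CSF1R, on macrophages and monocytes, CSF2 (GM-CSF) acts on granulocytes and macrophages, and CSF3 (G-CSF) drives neutrophil production and is known for the granulocytosis of mice that carry 4T1 tumors. TSLP and the alarmins IL-33 and IL-1 alpha are made by epithelial cells and alert immune cells to damage, IL-33 and IL-1 alpha being stored in the cell and released when it is stressed or dies.

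Library totals ran from 15041995 to 16968215 counts in 4T1-Sca1+ and from 13561804 to 16142836 in 4T1-Sca1-. Ly6a was counted 176, 196, 145 and 192 times in the 4T1-Sca1+ libraries and 2, 4, 0 and 1 times in the 4T1-Sca1- libraries, in the order of replicates 1 to 4, so every library carried the transcript level its label names. Of the 8 epithelial markers listed, 7 exceeded 10 counts in a library. Their summed level was 54183 to 59105 normalized counts in 4T1-Sca1+ and 53743 to 57955 in 4T1-Sca1-. Single markers moved in both directions. At an edgeR adjusted p under 0.05, Krt8 and Krt18 were higher and Cdh1, Krt7 and Krt14 lower, 2 and 3 of the 7 tested. Among all genes tested these shares were 31.3% and 30.2%. Cdh1 fell by 0.69 ± 0.04 on the log2 scale (edgeR adjusted p = 6.19e-10). Of the 18 leukocyte markers, 12 were counted and 10 of these stayed at or under 10 counts in every library, with at most 4 for Ptprc, which encodes CD45, and at most 1 for Lyz2. 4T1-Sca1+ replicate 3 stood slightly apart, with a mean correlation with the other libraries of its group of 0.994 on the log2 CPM scale against 0.995 for each of the others.

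Of the 10 genes, 3 were higher in 4T1-Sca1+ cells (Il33, Tslp and Csf1r), 5 were lower (Csf1, Csf2, Il1a, Il34 and Mif) and 2 were not called (Csf3 and Il18) in edgeR's quasi-likelihood test at a Benjamini-Hochberg adjusted p under 0.05. The same test called 61.5% of all genes tested, 31.3% higher and 30.2% lower, so 8 calls among 10 genes lie close to the background of this comparison. Calls with a change of at least 2-fold were made for 5 of the 10 (Il33, Tslp, Csf1r, Csf2 and Csf1), against 6.1% of all genes tested, 5.22% higher and 0.879% lower. For 9 of the 10 genes, and for 54.7% of all genes tested, every library of 1 group lay above every library of the other. The median log2 fold change was -0.15 over the 10 genes and 0.0074 over all genes tested. In the study, Il33 and Tslp belong to a Sca1-positive signature and Csf1 and Csf2 to a Sca1-negative signature that were drawn from these libraries, so the directions of these 4 genes are not independent evidence.

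**Figure D1:**
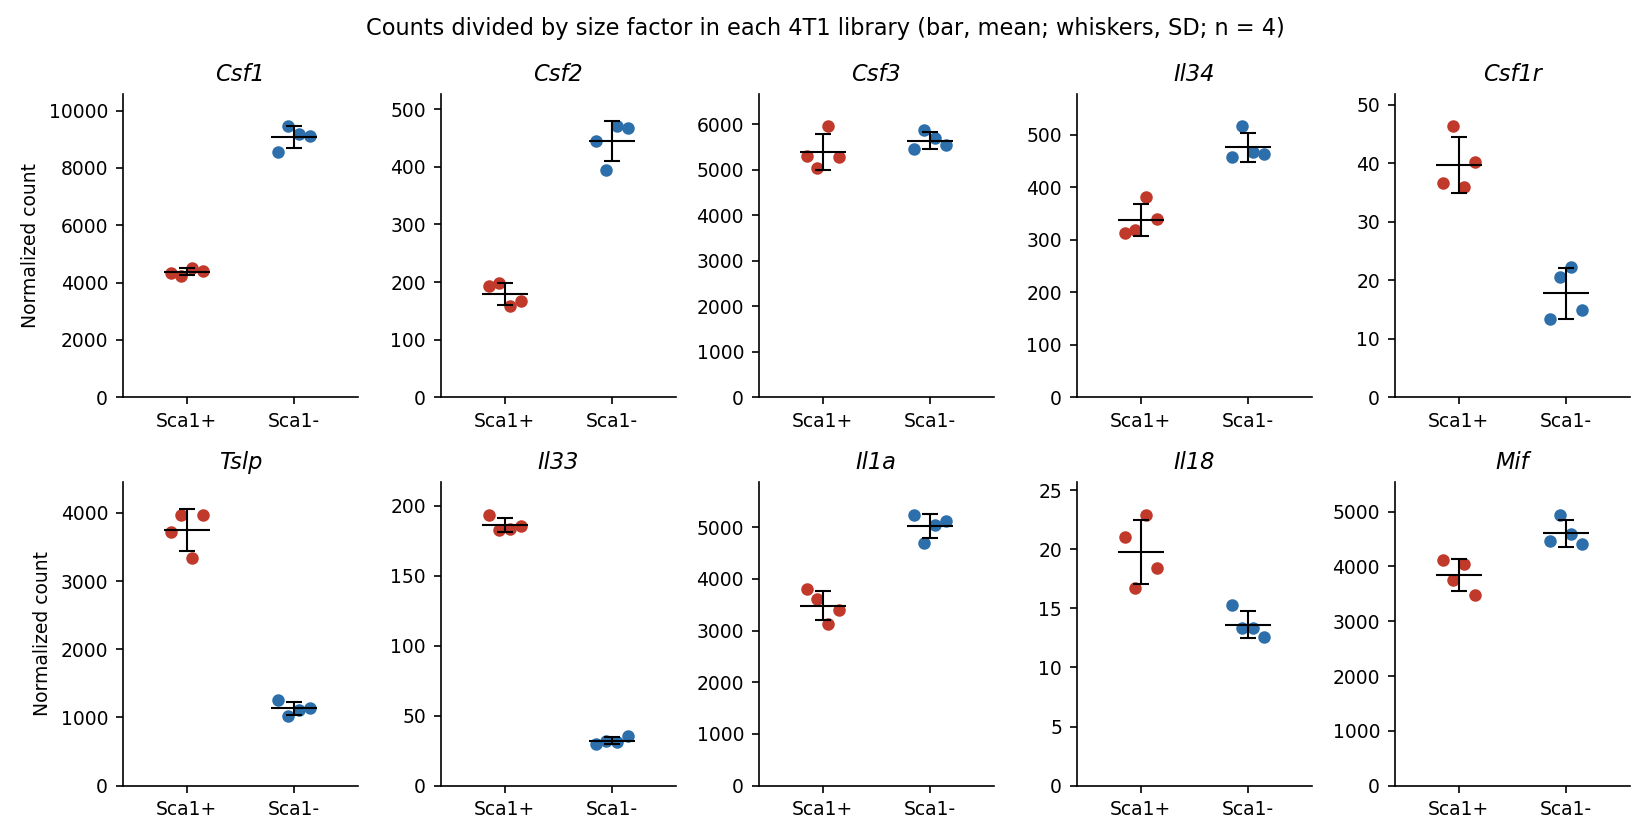
Normalized counts (counts divided by the library's size factor, linear axes from 0) of the 10 genes in the 4 4T1-Sca1+ (red) and 4 4T1-Sca1- (blue) libraries, with the mean as a bar and the SD as whiskers. Il33, Tslp and Csf1r sit higher in every 4T1-Sca1+ library, Csf1 and Csf2 sit higher in every 4T1-Sca1- library, and only for Csf3 do the libraries of the groups overlap.

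Csf1, which encodes the growth factor that macrophages depend on (ENSMUSG00000014599, chr3:107741048-107760469, minus strand of GRCm38), was lower in 4T1-Sca1+ cells. Its normalized counts were 4329, 4236, 4522 and 4415 in the 4T1-Sca1+ libraries and 8543, 9461, 9185 and 9116 in the 4T1-Sca1- libraries, in replicate order. The highest 4T1-Sca1+ library thus stayed well under the lowest 4T1-Sca1- library. The means were 4376 ± 122 and 9076 ± 386 (SD, n = 4), a log2 fold change of -1.04 ± 0.04 (SE, adjusted p = 1.80e-12) or 2.06-fold lower, and Csf1 ranked 97 from the lowest of the 11717 genes tested by log2 fold change. In such bulk libraries, fewer cells that express a gene and less RNA per cell cannot be told apart. Il34, the other ligand of CSF1R (ENSMUSG00000031750, chr8:110741829-110805924, minus strand), lay in the same direction with a smaller change. It read 313, 319, 381 and 339 normalized counts in 4T1-Sca1+ and 457, 516, 466 and 462 in 4T1-Sca1-. Here too the groups did not overlap, and the log2 fold change was -0.48 ± 0.07 (adjusted p = 1.64e-05), 1.40-fold lower.

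Csf1r, the receptor of both ligands and a marker of macrophages (ENSMUSG00000024621, chr18:61100598-61132149, plus strand), was barely detected. Raw counts were 40, 47, 36 and 46 in the 4T1-Sca1+ libraries and 14, 20, 20 and 13 in the 4T1-Sca1- libraries. Every 4T1-Sca1+ library exceeded every 4T1-Sca1- library, with a log2 fold change of 1.18 ± 0.20 (adjusted p = 8.38e-05), 2.26-fold higher. Beside this difference stand values of macrophages and other leukocytes: the sum of the 12 leukocyte markers counted was 931 to 979 normalized counts in 4T1-Sca1+ and 993 to 1068 in 4T1-Sca1-, nearly all of it from Cd14 and Cd68, and without these 21.7 to 23.9 and 7.64 to 22.3. Cd14 and Cd68 went opposite ways, and neither overlapped between the groups. Cd14 fell by 0.29 ± 0.05 on the log2 scale (adjusted p = 0.000173). Cd68, a marker of macrophages, rose with Csf1r, at 236 ± 18.4 and 152 ± 9.67 normalized counts (log2 fold change 0.65 ± 0.09, adjusted p = 6.06e-06). The remaining leukocyte markers were too sparse for the test. Of these, Ptprc went with Csf1r without overlap, at 2, 2, 2 and 4 raw counts in 4T1-Sca1+ and 0, 1, 1 and 0 in 4T1-Sca1-. The rest overlapped between the groups. Their mean normalized counts were higher in 4T1-Sca1+, as for Fcer1g (2.41 against 0.535), except for Aif1 (4.03 against 5.42), Itgam and Lyz2, which were lower. Csf1r also shares 873 exonic bases, 15.1% of its exonic length, with Hmgxb3 on the opposite strand. Hmgxb3 had 1568 to 1856 counts per library and a log2 fold change of -0.13 ± 0.05 (adjusted p = 0.0301), and if its reads fell evenly over its exons the shared bases would take 126 to 149 of them, more than Csf1r was given in any library. The library kit does not mark strand, so strand cannot separate reads of Csf1r from those of Hmgxb3 in the shared bases. How such reads were counted is not given in the sources used here. The part of leukocytes or of Hmgxb3 in the Csf1r counts was not tested.

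Csf2 and Csf3, the factors for granulocytes and macrophages and for neutrophils, differed from each other. Csf2 (ENSMUSG00000018916, chr11:54247271-54249667, minus strand) read 193, 198, 159 and 167 normalized counts in 4T1-Sca1+ and 445, 395, 471 and 467 in 4T1-Sca1-. The groups were far apart, and the means of 179 ± 19.3 and 445 ± 34.7 gave a log2 fold change of -1.30 ± 0.09 (95% interval -1.48 to -1.11, adjusted p = 7.73e-10), 2.46-fold lower, at rank 61 from the lowest. Csf3 (ENSMUSG00000038067, chr11:98701263-98703629, plus strand) read 5307, 5029, 5959 and 5274 in 4T1-Sca1+ and 5451, 5868, 5687 and 5534 in 4T1-Sca1-. The groups overlapped, with 4T1-Sca1+ replicate 3 above all other libraries, and the log2 fold change of -0.05 ± 0.05 (95% interval -0.16 to 0.055, adjusted p = 0.395) was not called. Csf3 was called lower, at -0.10 (adjusted p = 0.0343), without that library and, at -0.17 (adjusted p = 0.000157), with offsets corrected for GC content, and its adjusted p ran from 0.000157 to 0.899 over the alternatives. The receptor genes of these factors that were counted stayed low, with at most 9 counts of Csf2rb, 4 of Csf2rb2 and 1 of Csf3r in a library.

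Tslp, which encodes an IL-7-like cytokine that conditions dendritic and other myeloid cells (ENSMUSG00000024379, chr18:32815383-32819797, plus strand), was raised in 4T1-Sca1+ cells and ranked 209 from the highest of the genes tested by log2 fold change. Its normalized counts were 3713, 3969, 3332 and 3975 in 4T1-Sca1+ and 1250, 1027, 1112 and 1144 in 4T1-Sca1-. No library of either group came near the other group, and the means of 3747 ± 302 and 1133 ± 92.3 gave a log2 fold change of 1.74 ± 0.07 (adjusted p = 4.31e-13), 3.34-fold higher. A long noncoding RNA gene on the opposite strand, 4930455D15Rik, overlaps Tslp without sharing exonic bases and had at most 3 counts.

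Il33, a nuclear alarmin of the IL-1 family (ENSMUSG00000024810, chr19:29925114-29960718, plus strand), had the largest fold change of the 10 genes. It read 194, 182, 184 and 186 normalized counts in 4T1-Sca1+ and 29.6, 31.8, 31.2 and 35.4 in 4T1-Sca1-. The spread within each group was small beside the gap, with means of 186 ± 5.13 and 32.0 ± 2.44 and a log2 fold change of 2.56 ± 0.11 (95% interval 2.32 to 2.79, adjusted p = 3.76e-12), 5.88-fold higher, at rank 72 from the highest. Il1a, which encodes the alarmin IL-1 alpha (ENSMUSG00000027399, chr2:129299610-129309972, minus strand), went the other way. Its normalized counts were 3796, 3616, 3124 and 3404 in 4T1-Sca1+ and 5246, 4696, 5051 and 5116 in 4T1-Sca1-. The groups did not overlap, and the log2 fold change was -0.52 ± 0.06 (adjusted p = 5.35e-07), 1.43-fold lower. Il1a shares 222 exonic bases with Gm14023 on the opposite strand, which had at most 2 counts.

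Il18, a cytokine that needs cleavage by caspase-1 (ENSMUSG00000039217, chr9:50554827-50581840, plus strand), was close to the limit of detection. Raw counts were 23, 17, 23 and 21 in 4T1-Sca1+ and 16, 13, 12 and 11 in 4T1-Sca1-. The lowest 4T1-Sca1+ library lay just above the highest 4T1-Sca1- library, and the log2 fold change of 0.54 ± 0.23 (95% interval 0.054 to 1.02, adjusted p = 0.0512) was not called. It was called without 4T1-Sca1+ replicate 2 (0.60, adjusted p = 0.0445), and the alternatives gave adjusted p values between 0.0307 and 0.153. Mif, which encodes an abundant cytokine that restrains macrophage migration (ENSMUSG00000033307, chr10:75859353-75860240, minus strand), read 4116, 3754, 4053 and 3486 normalized counts in 4T1-Sca1+ and 4463, 4948, 4593 and 4409 in 4T1-Sca1-. The highest 4T1-Sca1+ library lay just under the lowest 4T1-Sca1- library. The log2 fold change was -0.24 ± 0.05 (adjusted p = 0.000866), 1.18-fold lower, and -0.55 with offsets corrected for GC content, with an adjusted p from 1.16e-08 to 0.00496 over the alternatives. The annotation holds 2 genes named as Mif pseudogenes, and neither was among the genes counted. The counting rule is not given, so whether reads that match them add to the Mif counts cannot be told.

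**Figure D2:**
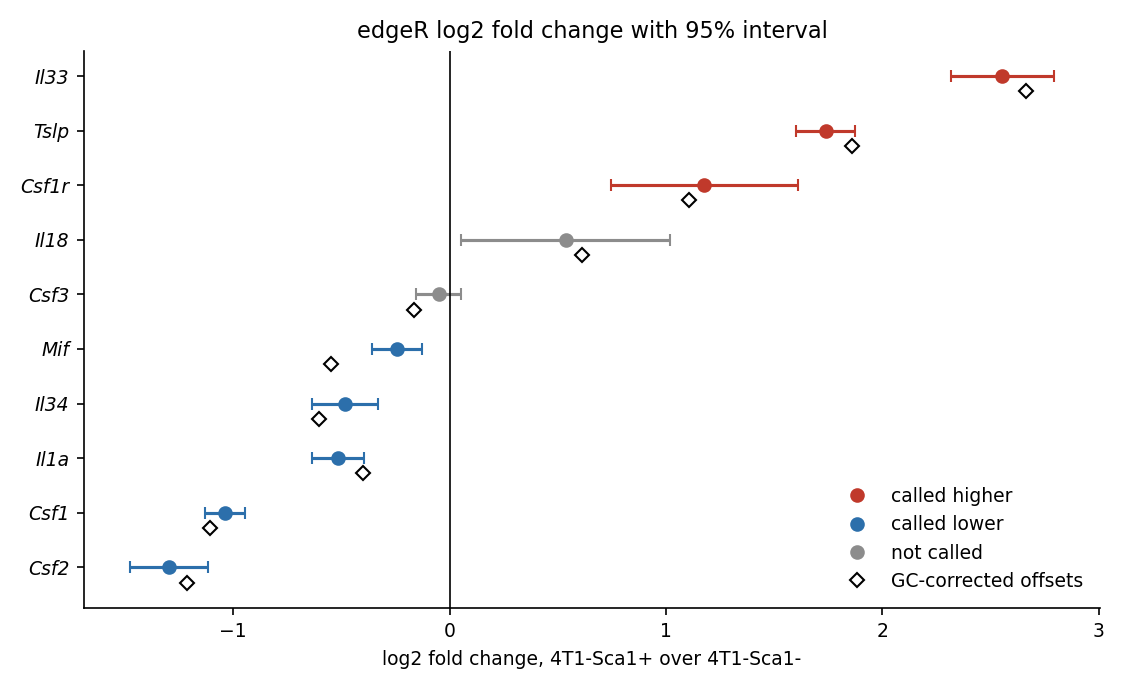
log2 fold change of each of the 10 genes, 4T1-Sca1+ over 4T1-Sca1-, from edgeR, with the 95% interval as a bar. Il33 (2.56), Tslp (1.74) and Csf1r (1.18) lie to the right of 0, Csf2 (-1.30) and Csf1 (-1.04) lie farthest to the left, and open diamonds show that offsets corrected for GC content moved Mif and Csf3 the most in relation to their size.

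The 5′ flanks are shown for Csf1 and for the alarmins Il1a and Il33, whose transcripts moved in opposite directions, because they hold the sequence next to the start from which these transcripts are made. RefSeq promoter entries were matched by symbol for 6 of the 10 genes, and the 250 bases before the start were searched on both strands for AP-1 (TGANTCA), NF-kappaB (GGG, any 2 bases, TTTCC), CRE (TGACGTCA), STAT (TTCNNNGAA), antioxidant response element (TGACNNNGC) and TATA box letters (TATAAA). An AP-1 match can lie inside an antioxidant response match. Capitals mark a match, and coordinates are in GRCm38.p6. Csf1 (chr3:107760470-107760719, minus strand) holds GGAAAGTCCC, an NF-kappaB match on the opposite strand, 154 to 145 bases before the start, as do 1.41% of 32851 promoter windows.
Csf1: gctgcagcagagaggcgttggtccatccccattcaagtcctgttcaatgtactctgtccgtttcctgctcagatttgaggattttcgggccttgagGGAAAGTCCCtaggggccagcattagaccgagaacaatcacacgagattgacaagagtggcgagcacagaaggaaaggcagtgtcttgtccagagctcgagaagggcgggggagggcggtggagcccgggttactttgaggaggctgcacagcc
Il1a (chr2:129309973-129310222, minus strand) holds TGACTCA, an AP-1 match, 12 to 6 bases before the start, and TATAAA 32 to 27 bases before it, against 6.75% and 12.4% of windows with AP-1 and TATA letters.
Il1a: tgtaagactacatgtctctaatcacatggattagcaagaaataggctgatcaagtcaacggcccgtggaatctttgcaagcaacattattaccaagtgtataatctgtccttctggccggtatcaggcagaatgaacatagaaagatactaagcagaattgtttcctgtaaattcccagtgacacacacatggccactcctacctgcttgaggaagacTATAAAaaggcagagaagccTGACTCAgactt
Il33 has 2 RefSeq entries, the first (chr19:29924863-29925112, plus strand) with TATAAA 203 to 198 bases before its start.
Il33, start 1: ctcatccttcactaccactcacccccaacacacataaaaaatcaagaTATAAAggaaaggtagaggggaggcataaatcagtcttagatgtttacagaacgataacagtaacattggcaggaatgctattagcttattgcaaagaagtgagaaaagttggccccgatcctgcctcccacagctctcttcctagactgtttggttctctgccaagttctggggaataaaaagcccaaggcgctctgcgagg
The other start of Il33 lies 20676 bases downstream of the start of the annotated gene, and its flank (chr19:29945540-29945789, plus strand) holds TATAAA 29 to 24 bases before it.
Il33, start 2: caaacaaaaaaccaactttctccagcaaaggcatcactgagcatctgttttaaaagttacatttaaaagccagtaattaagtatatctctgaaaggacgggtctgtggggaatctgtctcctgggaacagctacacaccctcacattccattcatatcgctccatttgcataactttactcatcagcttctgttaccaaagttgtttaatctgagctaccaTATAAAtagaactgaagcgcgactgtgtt
The RefSeq starts of Csf2, Il18 and Mif lie 232, 127 and 37 bases upstream of the starts of the annotated genes. The bases between were not searched. In the searched flank of Csf2 none of the letters was found. Mif holds TGACGTCA, a CRE match, 24 to 17 bases before its RefSeq start, against 1.55% of windows with CRE letters. Il18 holds TATA letters on the opposite strand 175 to 170 bases before its RefSeq start. These matches describe the sequence only, and counts per gene do not say which start of Il33 was used.

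Levels of different genes were compared per exon length, as counts divided by exon length and library total (RPKM), which puts the order of the cytokines in each fraction on 1 scale. In 4T1-Sca1+ cells Mif (347 ± 25.0) and Csf3 (256 ± 17.8) led, followed by Tslp (189 ± 16.05), Il1a (118 ± 10.1), Csf1 (55.6 ± 1.40), Csf2 (15.0 ± 1.65), Il34 (11.6 ± 1.02), Il33 (4.33 ± 0.121), Il18 (1.29 ± 0.173) and Csf1r (0.462 ± 0.057). No pair of neighbours in this order overlapped between libraries. In 4T1-Sca1- cells Mif (399 ± 18.04) and Csf3 (257 ± 6.82) led again, but Il1a (164 ± 8.93) and Csf1 (111 ± 4.13) stood above Tslp (55.0 ± 4.83), followed by Csf2 (35.9 ± 3.06), Il34 (15.7 ± 0.770), Il18 (0.854 ± 0.075), Il33 (0.715 ± 0.054) and Csf1r (0.198 ± 0.048). Only Il18 and Il33 overlapped among neighbours there. Tslp was thus the third of the 10 by level in 4T1-Sca1+ cells and the fifth in 4T1-Sca1- cells, while Il33 stayed among the last 3 in both.

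**Figure D3:**
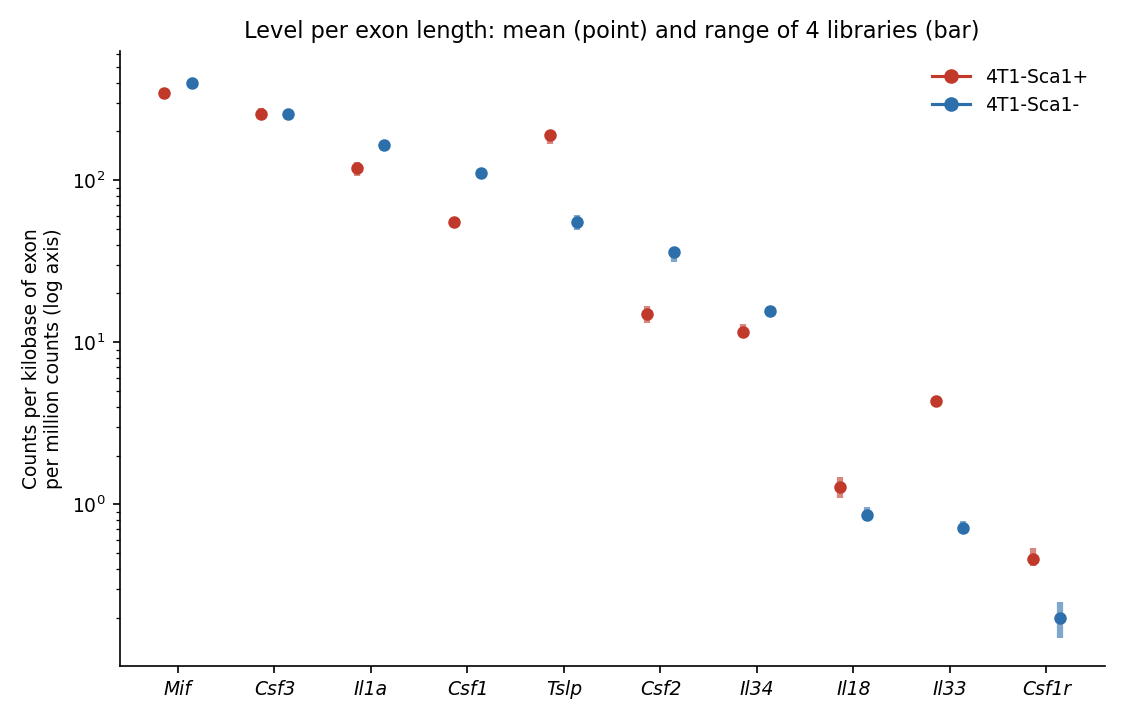
Level of each of the 10 genes as counts divided by exon length and library total (RPKM) on a log axis, with the mean of 4 libraries as a point and their range as a bar, in 4T1-Sca1+ (red) and 4T1-Sca1- (blue). Mif and Csf3 lead in both groups, Tslp is above Il1a in 4T1-Sca1+ (189 against 118) and below it in 4T1-Sca1- (55.0 against 164), and Csf1r is the lowest in both.

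Ratios within a library compare cytokines with no scaling between libraries apart from the 1 added to each normalized count, and 4 pairs were compared by a two-sided exact permutation test of 4 against 4 libraries, whose smallest p is 0.0286. All 4 pairs reached that smallest value (adjusted p = 0.0286 over the 4 pairs, exact permutation test). For Il1a to Il33 and Csf1 to Csf1r, the paired genes already moved in opposite directions without overlap. For Csf1 to Il34 and Csf3 to Csf2, the ranges of the single genes likewise left no room for the ratios to overlap. The outcome of the test was therefore fixed for all 4 pairs and adds nothing to the single-gene values. Csf1 against Il34, both ligands of CSF1R, had a log2 ratio of 3.70 ± 0.094 in 4T1-Sca1+ and 4.25 ± 0.054 in 4T1-Sca1-, 1.47-fold lower in 4T1-Sca1+. Per exon length, Csf1 exceeded Il34 by 4.83 ± 0.310 times in 4T1-Sca1+ and by 7.09 ± 0.264 times in 4T1-Sca1-. The log2 ratio of Csf3 to Csf2 was 4.91 ± 0.247 and 3.66 ± 0.151, 2.37-fold higher in 4T1-Sca1+. Between the alarmins Il1a and Il33 the gap was widest, with a log2 ratio of 4.21 ± 0.101 in 4T1-Sca1+ and 7.25 ± 0.132 in 4T1-Sca1-, 8.22-fold lower in 4T1-Sca1+. Il1a was thus 27.3 ± 1.89 times the level of Il33 per exon length in 4T1-Sca1+ cells and 231 ± 21.9 times in 4T1-Sca1- cells. Csf1 against its receptor gene Csf1r had a log2 ratio of 6.75 ± 0.196 and 8.95 ± 0.290, 4.58-fold lower in 4T1-Sca1+, with the same limits on the Csf1r counts as above.

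**Figure D4:**
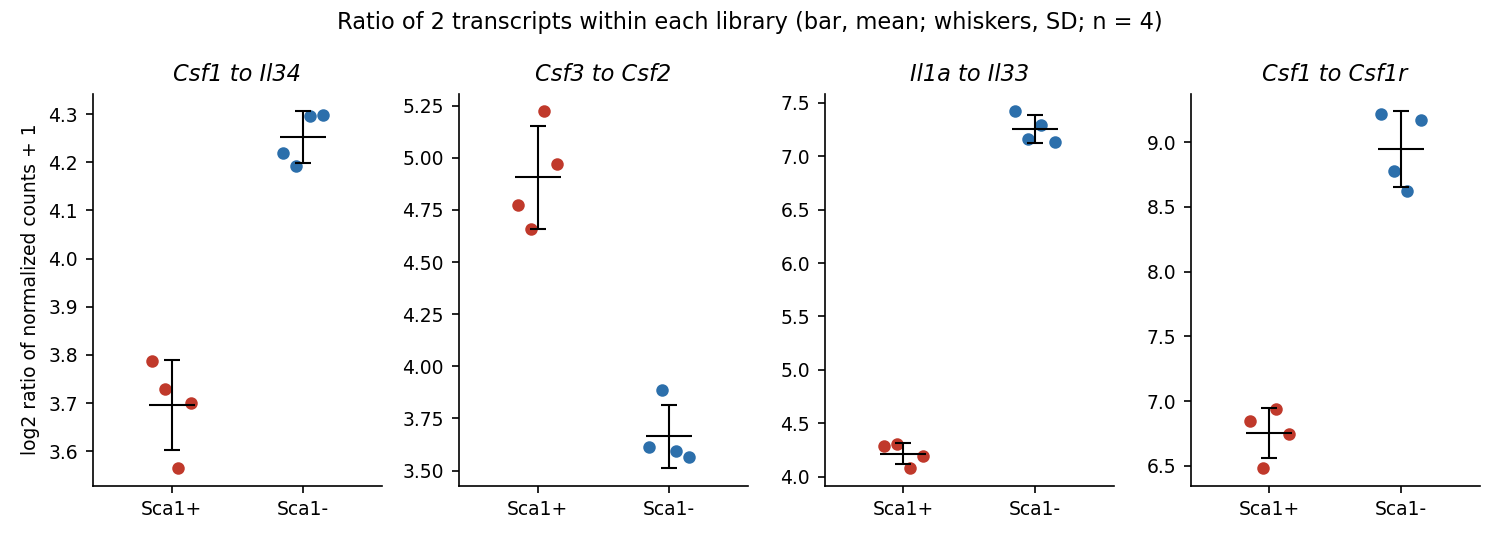
log2 ratio of normalized counts (1 added to each) of 4 pairs of transcripts within each library, with the mean as a bar and the SD as whiskers (n = 4). The groups do not overlap in any of the 4 pairs, and Il1a to Il33 shows the widest gap, 4.21 against 7.25.

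Among the receptors, decoys and coreceptors of these cytokines, 11 of the 22 listed genes were tested, of which 4 were called higher and 3 lower, near the 31.3% and 30.2% of all genes tested, with a median log2 fold change of -0.0084. The limma fit on the deposited normalized values used no low-count filter, so it also tested receptors left out of the 11. There 8 were called higher. Il1rl1, which encodes ST2, the receptor of IL-33, was 7.40 ± 3.05 normalized counts in 4T1-Sca1+ and 25.8 ± 3.55 in 4T1-Sca1-, with raw counts of 4 to 13 and 22 to 26. It fell by 1.74 ± 0.28 on the log2 scale (adjusted p = 3.76e-05), against the rise of its ligand's transcript. The most abundant genes of the list were Cd44, a coreceptor of MIF, which fell by 0.52 ± 0.05 (adjusted p = 1.65e-07), and the proteoglycan Sdc1, a binding partner of IL-34, which rose by 0.40 ± 0.04 (adjusted p = 3.65e-07). The receptors that follow were chosen after their values were seen. Il1r1, the signaling receptor of IL-1 alpha, was 546 ± 16.1 and 284 ± 19.6 normalized counts, a log2 fold change of 0.96 ± 0.07 (adjusted p = 1.24e-09). Cd74, the surface receptor of MIF, rose by 0.94 ± 0.13 (adjusted p = 1.03e-05), and Crlf2, the specific chain of the TSLP receptor, rose by 0.44 ± 0.12 (adjusted p = 0.00369). Il18rap, the accessory chain of the IL-18 receptor, fell by 0.54 ± 0.07 (adjusted p = 1.53e-06), at 441 ± 33.4 and 648 ± 30.3 normalized counts. Il18r1, the other chain of that receptor, had 0 counts in every 4T1-Sca1+ library and at most 2 in any 4T1-Sca1- library. Il7r, the other chain of the TSLP receptor, was not analysed here.

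Of the genes that process alarmins or open the cell for their release, 14 of 20 listed were tested, 6 were called higher and 0 lower by edgeR, where 31.3% of all genes tested were called higher and 30.2% lower, with a median log2 fold change of 0.07. At an unadjusted p under 0.05, and with DESeq2 or limma-voom, the counts were also 6 and 0, whereas 1 gene was called lower without 4T1-Sca1- replicate 1 and with offsets corrected for GC content. Casp1, the protease that activates IL-18, was 364, 361, 287 and 327 normalized counts in 4T1-Sca1+ and 62.1, 67.8, 99.1 and 82.2 in 4T1-Sca1-. The groups were far apart, with a log2 fold change of 2.13 ± 0.12 (adjusted p = 1.26e-10), 4.38-fold higher. Casp1 is also in the study's Sca1-positive signature. Aim2, a sensor of cytosolic DNA that assembles an inflammasome, rose by 1.54 ± 0.35 (adjusted p = 0.00101) from 2 to 6 raw counts in 4T1-Sca1- to 11 to 17 in 4T1-Sca1+, and Gsdme, a pore-forming gasdermin, rose by 1.17 ± 0.15 (adjusted p = 2.47e-06). Capns1, the small subunit of the calpains that cut the IL-1 alpha precursor, had a log2 fold change of 0.06 ± 0.04 and was not called.

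The other lists were smaller. Of 11 other alarmins and IL-1 family genes, 4 were tested, 1 was called higher and 0 lower (31.3% and 30.2% of all genes tested), with a median log2 fold change of -0.0083. These counts were the same at an unadjusted p under 0.05 and with DESeq2 or limma-voom, and without 4T1-Sca1+ replicate 1 or 4T1-Sca1- replicate 3, as with offsets corrected for GC content, 1 gene (Ddt) was called lower. The gene called higher was S100a8, a calcium-binding alarmin of neutrophils and epithelium, at 33 to 50 raw counts in 4T1-Sca1+ and 3 to 10 in 4T1-Sca1- and a log2 fold change of 2.38 ± 0.27 (adjusted p = 8.33e-07). Its usual partner S100a9 had at most 2 counts. Hmgb1, a nuclear alarmin, was 365 ± 31.9 and 381 ± 34.4 normalized counts and was not called (log2 fold change -0.05 ± 0.08), and its sign turned without 4T1-Sca1+ replicate 3 or 4T1-Sca1- replicate 1. Ddt, a homolog of Mif, had a log2 fold change of -0.17 ± 0.08 and was not called. Of 12 other growth factors for blood cells, 5 were tested, and 0 were called higher and 4 lower, beside 31.3% and 30.2% of all genes tested, with a median log2 fold change of -0.56. The counts were the same at an unadjusted p under 0.05 and with DESeq2 or limma-voom, and 1 gene was called higher with no low-count filter and with limma on the deposited normalized values. Il23a, a subunit of the cytokine IL-23, was the most abundant and fell by 0.66 ± 0.05 (adjusted p = 1.23e-09), from 1400 ± 16.5 normalized counts in 4T1-Sca1- to 878 ± 19.2 in 4T1-Sca1+. Kitl, which encodes stem cell factor, fell by 0.24 ± 0.09 (adjusted p = 0.0273), and this call was lost without 4T1-Sca1+ replicate 3 or 4 or 4T1-Sca1- replicate 1 or 4, at -0.22 to -0.16.

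Of 14 adaptors of IL-1 and IL-18 signaling, 13 were tested, 5 were called higher and 3 lower, against 31.3% and 30.2% of all genes tested, with a median log2 fold change of 0.12. Peli2, a ubiquitin ligase of this pathway, rose by 2.55 ± 0.27 (adjusted p = 3.65e-07) from 7.12 ± 3.31 to 41.9 ± 7.36 normalized counts. Irak1, the kinase recruited to the activated receptor, rose by 0.42 ± 0.04 (adjusted p = 3.16e-07), and Tab2, a partner of the kinase TAK1, fell by 0.21 ± 0.05 (adjusted p = 0.000729). Peli2 and S100a8 are in the study's Sca1-positive signature as well. Over the 5 lists, 47 of 79 genes were tested, and 16 were called higher, 10 lower and 21 not called, where all genes tested gave 31.3% higher and 30.2% lower.

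**Figure D5:**
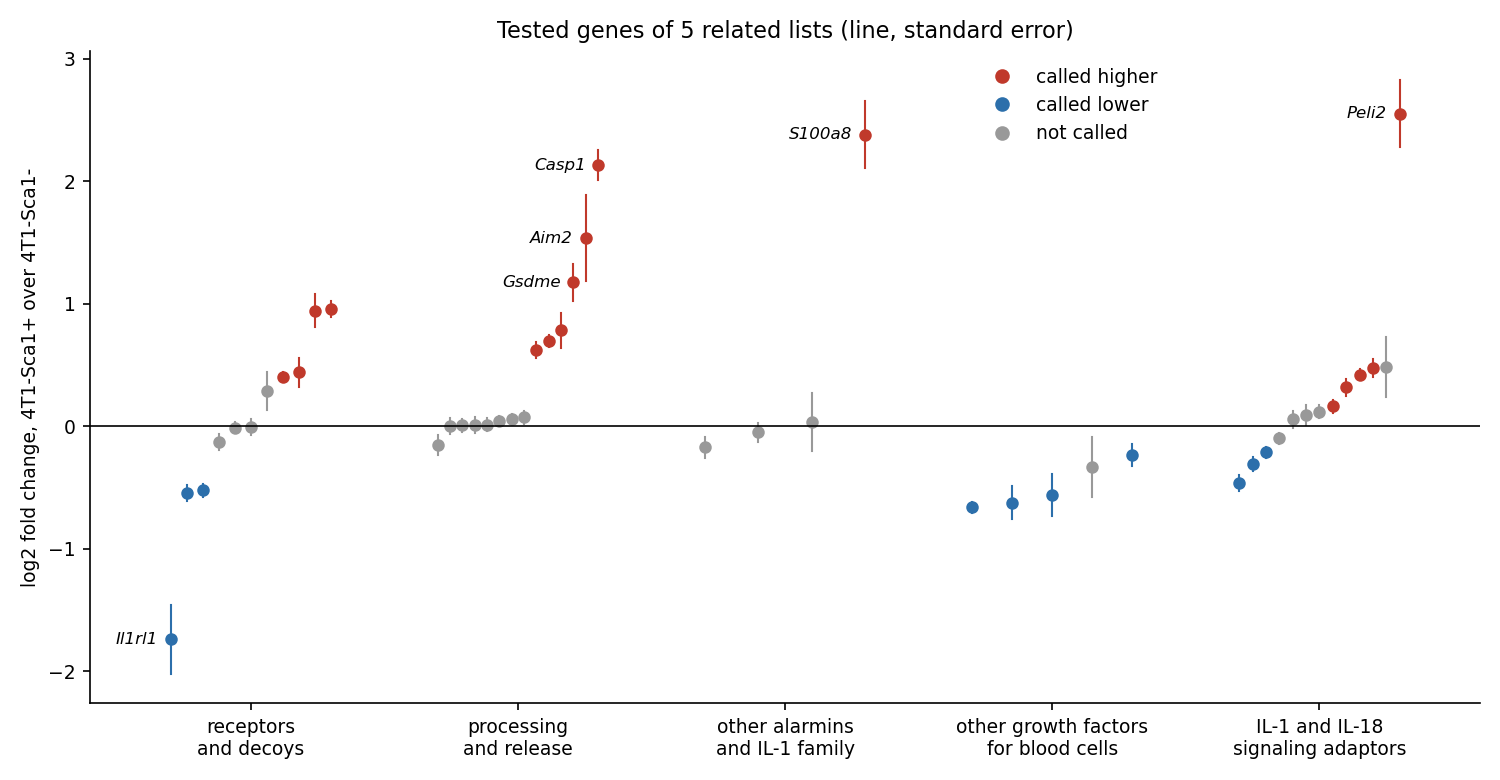
log2 fold change, 4T1-Sca1+ over 4T1-Sca1-, of the 47 tested genes of 5 related lists, each point a gene with its standard error as a line, red where called higher, blue where called lower and gray where not called. Peli2 (2.55), S100a8 (2.38) and Casp1 (2.13) lie highest, Il1rl1 (-1.74) lies lowest, and 4 of the 5 other growth factors are called lower.

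Markers of stromal cells moved with the groups to some extent. The 7 fibroblast markers counted summed to 635 to 671 normalized counts in 4T1-Sca1+ and 395 to 468 in 4T1-Sca1-, most of it Pdgfra, and to 64.8 to 111 and 51.2 to 70.8 without it. Pdgfra rose by 0.63 ± 0.07 on the log2 scale (adjusted p = 2.28e-07) and Col1a1 by 0.75 ± 0.19 (adjusted p = 0.00252). Postn was tested and not called, at 0.05 ± 0.24 (edgeR adjusted p = 0.868). Too few counts for the test were found for Dcn (15, 14, 6 and 14 in 4T1-Sca1+ and 1 in each 4T1-Sca1- library), Pdgfrb (27 in all and 1 in all) and Col1a2 (19 in all and 18 in all), and the groups did not overlap for Dcn and Pdgfrb. Fap, also too sparse, went the other way with overlap, at 0, 3, 0 and 1 raw counts in 4T1-Sca1+ and 2, 2, 4 and 3 in 4T1-Sca1-. The 6 endothelial markers counted summed to 33.8 to 40.9 in 4T1-Sca1+ and 43.4 to 63.9 in 4T1-Sca1-, most of it Tie1, which fell by 0.60 ± 0.19 (adjusted p = 0.0121). Pecam1 went the other way without overlap, at 4, 7, 6 and 4 raw counts in 4T1-Sca1+ and 1, 2, 0 and 1 in 4T1-Sca1-, too few for the test. Fibroblasts and endothelial cells can express Il33, Tslp, Csf1 and Il34, and the part of such cells in these differences was not tested.

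The genes whose levels over the 8 libraries were most like those of Il33, by Pearson correlation of log2 CPM among 9367 genes with a mean of at least 100 normalized counts, were Aldh3a1 (r = 0.9994), Adgrg3 (r = 0.9989) and Xdh (r = 0.9987). For Csf2 they were Rrp8 (r = 0.9967), Cdk8 (r = 0.9962) and Tmem40 (r = 0.9959). The libraries form 2 groups, so any gene with a clear difference between them follows such a pattern, and 920 genes reached r = 0.95 with Il33 and 1026 with Csf2. These values are descriptions over libraries that share the sort.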

How the data were processed

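RNA-seq was measured in 4 libraries of 4T1-Sca1+ and 4 of 4T1-Sca1- cells (TruSeq RNA kit v2, NextSeq instrument, a kit that does not mark strand). Per the submitters' processing notes the tools included cutadapt 1.16 and STAR 2.5.3a, with the builds GRCm38 and mm10. The counting tool, annotation and use of strand are not given in the sources used here. The authors deposited raw counts per Ensembl gene for 16341 genes. The authors also deposited a normalized signal table of 15372 genes, whose values equalled counts divided by DESeq2 size factors to a relative difference of at most 4.96e-15, and which left out 969 genes with a total of 1 count. Normalized counts printed here are on that scale, as mean ± SD.

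Symbols, positions and exon lengths came from GENCODE M21 (GRCm38), where 16202 genes were matched by ID and 139 were not. Counts were tested with edgeR 4.0.16 in R 4.3.3 (filterByExpr, TMM, glmQLFit and glmQLFTest, two-sided, no covariate), adjusted by Benjamini-Hochberg over 11717 genes and called under 0.05. The standard error is the absolute log2 fold change over the square root of F. The script was tested on simulated data with known changes.

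The 10 genes and all lists were chosen with earlier results of these data known. Related genes (receptors and decoys, processing and release, other alarmins, other growth factors, adaptors) were named when called with a log2 fold change of at least 1 in size or when among the 2 most abundant of their list, apart from a gene that is not reported here, and likeness was computed for the called gene with the highest and the one with the lowest fold change. Alternatives were other scalings, filters, DESeq2 1.42.0, limma-voom (limma 3.58.1), limma on the deposited signal, GC-corrected offsets (GC content known for 99.1% of tested genes), a replicate block, an adjusted p under 0.01 and each library left out. Reads were not tied to molecules by identifiers, so counting error is a lower limit of the error for genes with few counts. Promoters came from RefSeq.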

Additional observations from a re-analysis of the deposited data

Results flagged for a closer look

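In groups of 4 libraries, 4 of 60 tests found 1 library far from the other 3 in its group, where chance gives about 1 in 20. Il34 was 516 normalized counts in 4T1-Sca1- replicate 2 and 457 to 466 in the other 4T1-Sca1- libraries. The same library had a log2 ratio of Csf3 to Csf2 of 3.89, against 3.56 to 3.61. Hmgb1 was 317 normalized counts in 4T1-Sca1+ replicate 3 and 377 to 385 in the others of its group. Il23a was 1425 normalized counts in 4T1-Sca1- replicate 1 and 1389 to 1395 in the others.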

How the results depend on the processing

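The 8 called genes of the 10 kept their direction and their call under all 19 alternatives. Csf3 was called lower with offsets corrected for GC content (-0.17), and ran from -0.10 to -0.020 with each library left out. Il18 was called higher with library totals alone (0.58), upper-quartile scaling (0.57), at least 10 counts in every library (0.55) and GC-corrected offsets (0.61), and ran from 0.46 to 0.60 with each library left out. Capns1 turned to -0.069 and Hmgb1 to 0.073 with GC-corrected offsets, and Hmgb1 ran from -0.094 to 0.0066 with each library left out. In these the cause was not tested.

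The replicate numbers did not pair the libraries: deviations from the group means correlated at 0.096, -0.15, -0.034 and -0.0011 between libraries of the same number. With the replicate block the log2 ratios were -0.56 (Csf1 to Il34), 1.24 (Csf3 to Csf2), -3.04 (Il1a to Il33) and -2.19 (Csf1 to Csf1r), and the exact sign-flip test over 4 pairs cannot go below 0.125. The block left 3 of the 10 genes called higher and 5 lower.

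Of the named related genes, Kitl lost its call in 7 settings and Ddt gained one in 3. Receptors called higher numbered 8 on the deposited signal table, where the fit used no low-count filter. Adaptors called higher numbered 8 with GC-corrected offsets. Il1rl1, Aim2, S100a8 and Peli2 could not be tested when at least 10 counts were required in every library. Depth limits Csf1r, Il18, Il1rl1 and Aim2, which had under 50 counts in each library.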
